A study of Mus musculus with 6 samples.

Results

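Translation factors are the proteins that bring ribosomes to an mRNA, begin, extend and end the protein chain, and take the ribosome apart afterwards. The genes described here are the protein-coding genes whose symbol begins with Eif1, Eif2, Eif3, Eif4, Eif5 or Eif6, or with Eef1 or Eef2, together with Etf1, Gspt1, Gspt2, Abce1, Pabpc1 and Pabpc4. The kinases of eIF2alpha, whose symbols begin with Eif2ak, were left out and are given with the regulators. This rule found 73 genes among the 24794 of the count table, 15594 of which are protein-coding, and 68 of the 73 had enough counts to be tested. RNA sequencing of polyadenylated RNA had been done on LLC cells, the Lewis lung carcinoma line of the mouse. In 3 libraries the cells carried a miR-291-3 mimic, a synthetic short RNA duplex that is loaded like a microRNA, and in 3 libraries they carried a control mimic. The series' design text names the microRNA as miR-291a-3p and asks what raising it does to these cells. Both groups had therefore been transfected, and the labels give no other genotype, treatment, dose or time. Whether the libraries were grown as separate cultures is not stated there, so p-values rest on the spread between libraries, which may be technical.

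As background, a capped mRNA is bound by eIF4E, held by the scaffold eIF4G and unwound by the helicase eIF4A, while poly(A)-binding proteins hold its other end. The small ribosomal subunit, carrying eIF1, eIF1A, eIF3 and the initiator tRNA on eIF2, scans to the start codon, and eIF2B reloads eIF2 with GTP for the next round. eEF1A then delivers aminoacyl-tRNAs, eEF2 moves the ribosome along, eRF1 (Etf1) with eRF3 (Gspt1) reads the stop codon, and ABCE1 splits the ribosome. Tumour cells are known to depend on several of these steps, above all on eIF4E, whose inhibitors are the 4E-binding proteins. A microRNA pairs with the 3′ UTR of its targets mainly through bases 2 to 8 of its own sequence, the seed.

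The sequences below show the seed of the microRNA and the matching sites in the members whose values are set against them further on. The labels write miR-291-3 without a or b, so both mature RNAs are shown, from RefSeq on GRCm38.p6, 5′ to 3′ with the seed in capitals. Mature miR-291a-3p lies at chr7:3218968-3218989 on the plus strand and miR-291b-3p at chr7:3219529-3219550 on the plus strand, and their seeds differ in the last base shown in capitals.
mmu-miR-291a-3p: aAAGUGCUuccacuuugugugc
mmu-miR-291b-3p: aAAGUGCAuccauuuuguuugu
Annotated 3′ UTRs (GENCODE M21, GRCm38) were searched on the sense strand for AGCACTTA (8mer), AGCACTT (7mer-m8), GCACTTA (7mer-A1) and GCACTT (6mer), and each gene was placed under its longest match. An 8mer was found in 4 members: Eif2s2, encoding the beta subunit of eIF2, Eif4b, which helps the helicase eIF4A, Eif4e, the cap-binding protein, and Eif4e2, a cap-binding relative. The site of Eif4e2 is not on the transcript with the longest coding sequence. All site classes here and below are those of the miR-291a-3p seed. Sites were not classed for miR-291b-3p, for which the same stretch can fall in another class. Eif4e3, one of the 3 members that fell, holds a 7mer-A1, and Eif2b1, the alpha subunit of eIF2B, a 7mer-m8. Each is shown within 30 bases of its 3′ UTR, with the site in capitals.
Eif4e: ttaataactacAGCACTTAcataataagtt
Eif2s2: acagacttcttAGCACTTAggaagcttctc
Eif4b: ctggatgaggaAGCACTTAacaggtagtga
Eif4e2: ttgggcactgaAGCACTTAaattgtgatcc
Eif2b1: aaaggcctagcAGCACTTctcggggtagtt
Eif4e3: ccctcatctgtGCACTTAcaggaagcacct
The capitals lie at chr3:138557732-138557739 on the plus strand for Eif4e, chr2:154871992-154871999 on the minus strand for Eif2s2, chr15:102096091-102096098 on the plus strand for Eif4b and chr1:87238472-87238479 on the plus strand for Eif4e2. For Eif2b1 they lie at chr5:124570561-124570567 and for Eif4e3 at chr6:99625966-99625972, both on the minus strand. A match describes the sequence and is not evidence that the microRNA bound there.

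Most translation factor mRNAs were a little higher in the mimic libraries. Of the 68 tested members, 55 rose, 3 fell and 10 did not pass (quasi-likelihood test of edgeR, adjusted p under 0.05 by Benjamini and Hochberg over all 13779 genes tested). Among all genes tested, 24.3% rose and 24.8% fell. The changes were small: 20 members rose and 3 fell by at least 1.2-fold, against 7.61% and 13.6% of all genes tested. In 55 members every mimic library was above every control library, an arrangement shown by 27.0% of all genes tested. The median log2 change of the tested members was 0.19, and that of all genes tested was -0.01. Together the 73 members took 4.02% ± 0.0068 of the counts of a control library and 4.34% ± 0.0221 of those of a mimic library (SD, n = 3 each).

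Translation factors are highly expressed, and highly expressed genes rose more often. CPM here are counts scaled to a common library size. Among the 4199 genes whose mean reached 50 CPM, 48.4% rose and 24.2% fell, with a median of 0.06. Of the 55 members at that level 52 rose and none fell. The 13 members under 50 CPM were divided, with 3 risen, 3 fallen and 7 not called. The level of 50 CPM was chosen after seeing the data. The scaling also mattered. With total counts only, 48 members rose, 7 of them by at least 1.2-fold in place of 20, and 5 fell, while over all genes 2341 rose and 4444 fell in place of 3349 and 3423. With that scaling the member median was 0.14 and the all-gene median -0.06. With limma on log2(FPKM + 1) 11 members rose by at least 1.2-fold. The counts given below for each step and complex are to be read beside 2 shares. Of all tested members 55 of 68 rose, and of all genes of at least 50 CPM 48.4% rose. No step was tested against another.

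**Figure D1:**
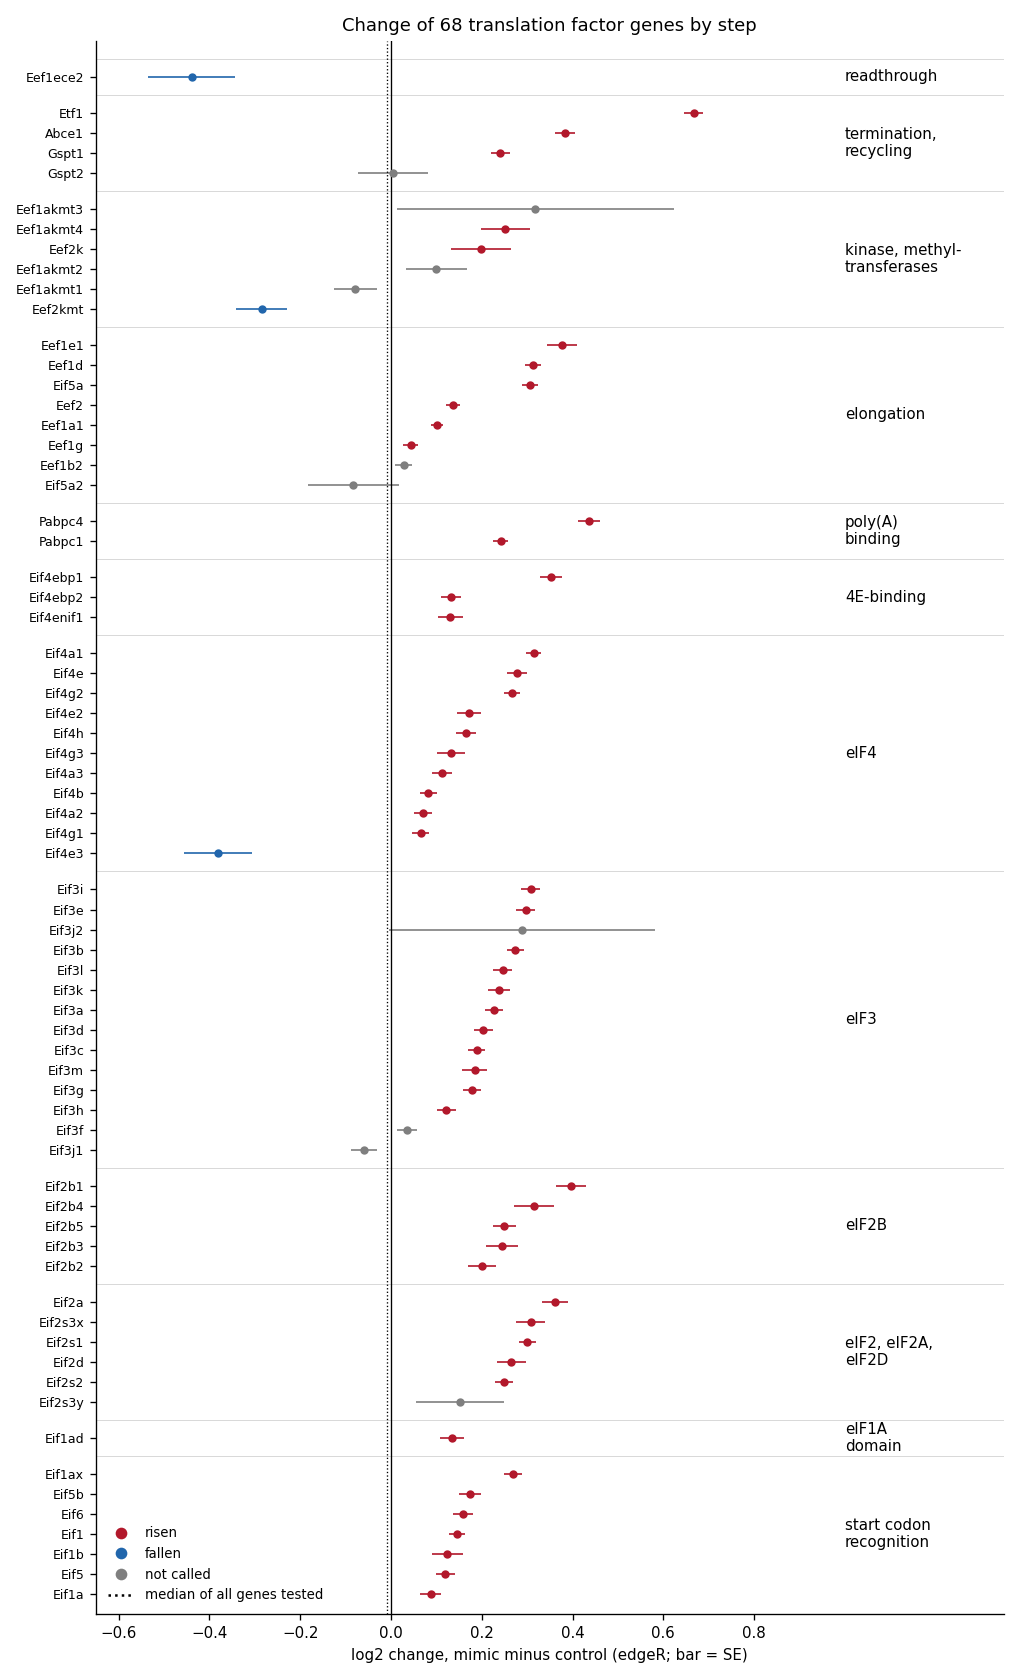
Log2 change (mimic minus control, edgeR) of the 68 tested translation factor genes, with bars for the SE, grouped by step; colour shows the call and the dotted line is the median of all genes tested. Etf1 stands farthest to the right at 0.67, and the 3 fallen members are Eif4e3, Eef2kmt and Eef1ece2.

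The largest change belonged to the factor that reads the stop codon. Etf1 (ENSMUSG00000024360.9, chromosome 18), which encodes the release factor eRF1, stood at 195, 195 and 196 CPM in the control libraries and 305, 317 and 308 CPM in the mimic libraries. The groups were far apart and the control libraries nearly identical. Its log2 change was 0.67 ± 0.02 (SE), adjusted p = 3.83e-21 (edgeR). It ranked 156 by size among the 3349 risen genes and 8.5 (tied) by p among the 13779 tested. Abce1, the ATPase that splits the ribosome after termination, gave 273, 285 and 279 CPM against 357, 375 and 359 CPM, a log2 change of 0.38 ± 0.02 (SE), adjusted p = 4.78e-15 (edgeR). Gspt1, the main eRF3, gave 257, 263 and 257 CPM against 305, 306 and 306 CPM and rose by 0.24 on the log2 scale. Its weakly expressed relative Gspt2 overlapped between groups, with 11.3, 11.2 and 10.6 CPM against 11.9, 10.6 and 10.6 CPM. Of the 4 termination and recycling genes, 3 rose and none fell. Etf1, Abce1 and Gspt1 have no seed match of 6 to 8 bases in an annotated 3′ UTR.

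**Figure D2:**
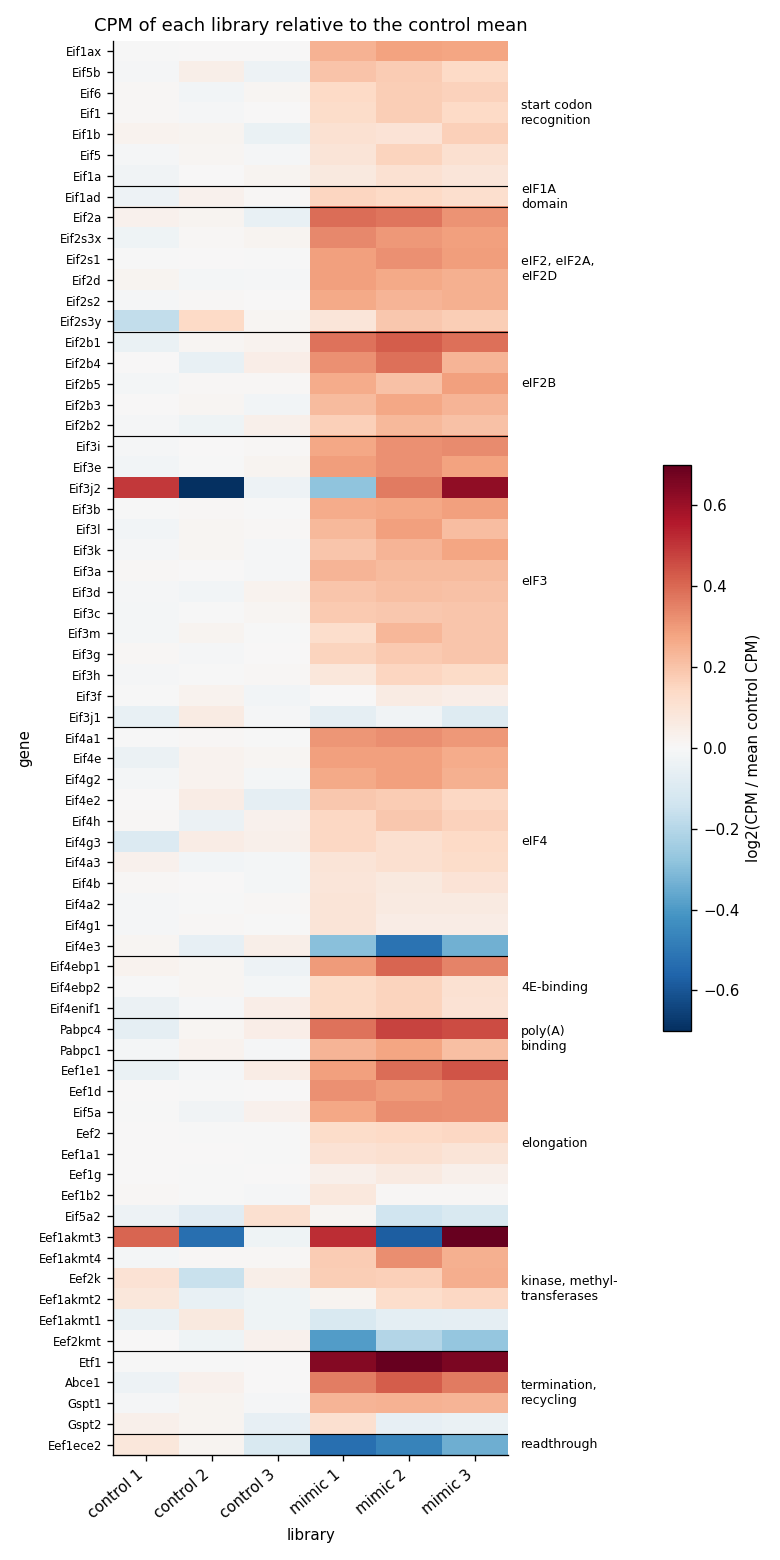
CPM of each of the 6 libraries relative to the control mean, on a log2 scale, for the tested members in order of step; the colour scale is capped at its ends. The 3 mimic columns are red for most rows, Etf1 is the darkest well-expressed row, and the rows for Eif4e3, Eef2kmt and Eef1ece2 are blue.

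At the step of ternary complex formation, most genes for eIF2 and its exchange factor rose, as most members did. eIF2 carries the initiator tRNA, and 5 of the 6 genes for its subunits and for the alternative carriers eIF2A and eIF2D rose, with a list median of 0.28. Eif2s1, the alpha subunit that the stress kinases phosphorylate, went from 435, 437 and 436 CPM to 533, 544 and 534 CPM, without overlap. Its log2 change was 0.30 ± 0.02 (SE), adjusted p = 3.18e-14 (edgeR). The gamma subunit gene Eif2s3x gave 56.6, 58.0 and 58.6 CPM against 72.9, 71.2 and 70.5 CPM, a log2 change of 0.31 ± 0.03 (SE) (adjusted p = 2.84e-09, edgeR). Eif2s2, the beta subunit with the 8mer shown above, rose by 0.25, from 365, 369 and 368 CPM to 441, 433 and 436 CPM. The Y-linked gamma subunit gene Eif2s3y was low, overlapped between groups and did not pass (log2 change 0.15, adjusted p = 0.206, edgeR). Reads of Eif2s3x and Eif2s3y may be shared between these near-identical copies.

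The alternative carriers are separate proteins that can bring an initiator tRNA to the ribosome without eIF2. Eif2a, which encodes eIF2A and not the alpha subunit of eIF2, gave 101, 100.2 and 95.7 CPM in the controls and 130.1, 129 and 123 CPM with the mimic. It rose by 0.36 ± 0.03 (SE) on the log2 scale, adjusted p = 5.80e-12 (edgeR). Eif2d gave 64.7, 63.2 and 63.6 CPM against 77.9, 76.7 and 75.7 CPM, a log2 change of 0.27 ± 0.03 (SE), adjusted p = 2.07e-08 (edgeR). In both genes every mimic library was above every control library.

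All 5 subunits of eIF2B rose, with log2 changes from 0.20 to 0.40. Eif2b1, the regulatory alpha subunit, changed most: its control libraries were at 56.4, 58.8 and 59.3 CPM and its mimic libraries at 75.7, 78.1 and 76.0 CPM. That is a log2 change of 0.40 ± 0.03 (SE) with adjusted p = 1.33e-11 (edgeR), in a gene that carries the 7mer-m8 shown above. Eif2b4, the delta subunit, gave 34.4, 33.1 and 35.3 CPM against 42.8, 44.8 and 40.4 CPM, a log2 change of 0.32 ± 0.04 (SE) (adjusted p = 3.92e-07, edgeR). Eif2b5, the catalytic epsilon subunit and the most counted of the 5, gave 121, 123 and 123 CPM against 146, 141 and 149 CPM. Its log2 change was 0.25 ± 0.03 (SE), adjusted p = 1.63e-09 (edgeR). Eif2b2 and Eif2b3 rose by 0.20 and 0.24.

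The factors of scanning, start codon recognition and subunit joining also moved one way. All 7 rose, with a median of 0.15 and a range of 0.09 to 0.27. Eif1ax, one of the genes for eIF1A, gave 329.5, 330.0 and 330.1 CPM against 391, 402 and 399.9 CPM and a log2 change of 0.27 ± 0.02 (SE), adjusted p = 1.04e-12 (edgeR). Its close copy Eif1a was at the lower end, at 0.09. Eif1, which guards start codon choice and is the most counted gene of this step, gave 849.9, 843 and 847 CPM against 924, 954 and 931 CPM. That is a log2 change of 0.15 ± 0.02 (SE), adjusted p = 5.29e-08 (edgeR). Eif5, which makes eIF2 hydrolyse its GTP, rose by 0.12. Eif5b, the GTPase of subunit joining, rose by 0.17 and Eif6, which keeps free large subunits apart from small ones, by 0.16. With total counts only, the rises of Eif1a and Eif1b did not pass.

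Eif1ad, a gene for a protein with an eIF1A domain, gave 99.9, 105 and 103 CPM against 114, 113 and 111 CPM. The groups did not overlap, and the log2 change was 0.13 ± 0.03 (SE), adjusted p = 1.23e-04 (edgeR). Its relative Eif1ad15 had at most 1 count in a library and was not tested.

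eIF3 is the large scaffold that holds the small subunit, the mRNA and the other factors together. Of its 14 genes 11 rose, none fell and 3 did not pass, with a list median of 0.22. The eIF3 genes took 0.434% ± 0.00237 of the counts in the controls and 0.483% ± 0.00416 with the mimic (SD, n = 3 each). Eif3i and Eif3b encode subunits of the same module. Eif3i gave 312, 313 and 315 CPM against 378, 391 and 394 CPM, a log2 change of 0.31 ± 0.02 (SE), adjusted p = 1.26e-13 (edgeR). Eif3b, the most counted eIF3 gene, gave 578, 582 and 579 CPM against 695, 700.2 and 708 CPM. Its log2 change was 0.27 ± 0.02 (SE), adjusted p = 1.04e-13 (edgeR). Eif3e, a core subunit, gave 327, 329.9 and 336 CPM against 405, 412 and 402 CPM, a log2 change of 0.30 ± 0.02 (SE) (adjusted p = 1.71e-13, edgeR). In these 3 genes the groups were clearly apart.

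The other risen eIF3 genes, Eif3a, Eif3c, Eif3d, Eif3g, Eif3h, Eif3k, Eif3l and Eif3m, had log2 changes from 0.12 (Eif3h) to 0.25 (Eif3l). Eif3f, also a core subunit, gave 298, 303 and 295 CPM against 299, 310.4 and 308 CPM and did not pass (log2 change 0.04, adjusted p = 0.171, edgeR). Its groups overlapped, whereas those of the 11 risen eIF3 genes did not. Eif3j1, the loosely bound subunit, gave 116, 125 and 119.7 CPM against 115, 118 and 113 CPM, a log2 change of -0.06 (adjusted p = 0.0881, edgeR). With total counts only, Eif3j1 fell by 0.12 (adjusted p = 0.0011, edgeR). Its copy Eif3j2 lay between 0.451 and 1.12 CPM with overlapping groups.

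Of the 11 tested eIF4 genes, grouped by symbol and so including Eif4a3, 10 rose and 1 fell. Eif4a1, the helicase, is the most counted of them and went from 1368, 1378 and 1368 CPM to 1700.3, 1720.3 and 1693 CPM. It had a log2 change of 0.31 ± 0.02 (SE), adjusted p = 5.46e-16 (edgeR). Its paralogue Eif4a2 rose by 0.07, a change that did not pass with total counts only. Eif4e, the cap-binding protein with the 8mer shown above, gave 235, 246 and 244 CPM against 295, 295 and 289.9 CPM. The log2 change was 0.28 ± 0.02 (SE), adjusted p = 4.53e-12 (edgeR), and every mimic library was higher. Eif4g2, a scaffold that lacks the region binding eIF4E and serves other routes of initiation, gave 841, 864 and 840.4 CPM against 1020.0, 1034 and 1008 CPM. That gene rose by 0.27 ± 0.02 (SE) on the log2 scale (adjusted p = 1.96e-13, edgeR). The main scaffold gene Eif4g1 rose by 0.07, with 725, 735 and 729 CPM against 778, 758 and 756 CPM, and not with total counts only.

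Eif4e3, an atypical cap-binding relative of low expression, went the other way. It stood at 13.9, 13.2 and 14.2 CPM in the controls and 11.3, 9.65 and 10.9 CPM with the mimic, and all 3 mimic libraries were below all controls. It fell by 0.38 on the log2 scale (SE 0.07, adjusted p = 7.85e-05, edgeR) and holds the 7mer-A1 shown above. Of the rest, Eif4e2, Eif4h, Eif4g3, Eif4a3 and Eif4b rose by 0.17, 0.17, 0.13, 0.11 and 0.08, the last not with total counts only. Eif4e1b, Eif4a3l2 and Eif4ebp3 were nearly silent and not tested.

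The inhibitors of eIF4E rose as well. Eif4ebp1, which encodes 4E-BP1, the protein that mTORC1 phosphorylates to free eIF4E, gave 224, 222 and 215 CPM against 271, 292 and 279.9 CPM. Its log2 change was 0.35 ± 0.02 (SE), adjusted p = 2.15e-13 (edgeR), with no overlap. Eif4ebp2 and the eIF4E transporter Eif4enif1 both rose by 0.13. Both poly(A)-binding protein genes rose. Pabpc4 gave 298, 314 and 322 CPM against 406, 432 and 427 CPM, a log2 change of 0.44 ± 0.02 (SE) and the next largest rise after Etf1 (adjusted p = 2.82e-15, edgeR). Pabpc1, the major form, gave 2620.4, 2696 and 2630.4 CPM against 3123, 3203 and 3069 CPM. It rose by 0.24 ± 0.02 (SE) on the log2 scale (adjusted p = 7.45e-13, edgeR).

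Elongation factors made up most of the members' counts, with Eef1a1 far ahead of the rest. They took 2.28% ± 0.0052 of the counts in the controls and 2.39% ± 0.00721 with the mimic (SD, n = 3 each). Of the 8 tested genes, which include Eef1e1 by its symbol only, 6 rose and none fell, with a median of 0.12. Eef1a1, the carrier of aminoacyl-tRNA, was the most counted member at 13173, 13143 and 13102 CPM against 14096, 14184 and 14012 CPM. Its groups did not overlap, and the log2 change was 0.10 ± 0.01 (SE), adjusted p = 3.71e-07 (edgeR). With limma on log2(FPKM + 0.1) its adjusted p was 0.0512. Eef2, the translocase, gave 3313, 3310.2 and 3311 CPM against 3618, 3649 and 3656 CPM and rose by 0.14. Eif5a, the hypusine-bearing factor that helps the ribosome through difficult peptide bonds, gave 2181, 2145 and 2226 CPM against 2639, 2739 and 2726 CPM. It rose more, by 0.31 ± 0.02 (SE) (adjusted p = 4.80e-15, edgeR), while its relative Eif5a2 lay between 5.60 and 6.66 CPM in all libraries with overlapping groups.

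The subunits of eEF1B, the exchange factor of eEF1A, gave unequal changes. Eef1d, the delta subunit, gave 596, 593 and 595 CPM against 743, 732 and 741 CPM, a log2 change of 0.31 ± 0.02 (SE), adjusted p = 4.13e-15 (edgeR). Eef1g, the gamma subunit, gave 1821, 1817 and 1821 CPM against 1863, 1901 and 1862 CPM and a log2 change of 0.04 (adjusted p = 0.0295, edgeR). That value was -0.01 with total counts only and did not pass there. Eef1b2, the other catalytic subunit, gave 1219.7, 1209 and 1205 CPM against 1274, 1216 and 1216 CPM, overlapped and did not pass. Eef1e1, a small protein of the multi-tRNA synthetase complex that resembles eEF1B, gave 87.9, 90.5 and 94.4 CPM against 111, 119 and 124 CPM. It rose by 0.38 ± 0.03 (SE) on the log2 scale (adjusted p = 5.17e-11, edgeR). The tissue-restricted Eef1a2 had at most 2 counts in a library and was not tested.

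Genes for enzymes that modify elongation factors were low. Of the 6, 2 rose, 1 fell and 3 did not pass, shares near those of all genes tested (24.3% risen, 24.8% fallen). Eef2kmt, which methylates eEF2, gave 24.1, 23.6 and 24.6 CPM against 18.4, 20.9 and 20.02 CPM, with all mimic libraries below all controls. It fell by 0.28 on the log2 scale (SE 0.06, adjusted p = 7.09e-05, edgeR). Eef2k, the kinase that inhibits eEF2, gave 17.2, 14.3 and 16.4 CPM against 18.0, 18.0 and 19.1 CPM and rose by 0.20 (adjusted p = 0.0131, edgeR). With total counts only Eef2k did not pass (adjusted p = 0.077, edgeR). Eef1akmt1, a lysine methyltransferase of eEF1A and the most counted of the 6, gave 28.5, 30.9 and 28.8 CPM against 27.3, 28.0 and 28.1 CPM. Its groups did not overlap, but the log2 change of -0.08 did not pass (SE 0.05, adjusted p = 0.184, edgeR), while with total counts only it fell by 0.13 (adjusted p = 0.0196, edgeR). Eef1akmt2 and Eef1akmt3 overlapped between groups.

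Eef1ece2 is a readthrough gene that joins Eef1akmt4 to its neighbour Ece2, so that its reads cannot be told apart from those of Eef1akmt4 where the 2 overlap. It gave 8.57, 8.22 and 7.52 CPM against 5.61, 5.85 and 6.39 CPM, with all mimic libraries lower. It fell by 0.44 on the log2 scale (SE 0.10, adjusted p = 2.85e-04, edgeR). Eef1akmt4 itself rose by 0.25, from 19.5, 19.8 and 19.8 CPM to 22.3, 24.7 and 23.4 CPM. How the counting divided reads between the 2 gene models was not tested.

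Levels of different genes can be compared roughly on the authors' FPKM, which divide counts by a length for each gene. How that length was set was not examined, and the order below depends on it. In the controls the order began with Eef1a1 at 4677 ± 27.5 FPKM, followed by Eef2 at 884 ± 3.68, Eif5a at 815 ± 11.9, Eef1g at 621 ± 1.86 and Eef1b2 at 425 ± 3.15 FPKM (SD, n = 3 each). Pabpc1 and Eif1 came next at 359 ± 7.11 and 358 ± 0.952 FPKM, which do not differ beyond their spread. Among other initiation factor genes, Eif4a1 was at 281 ± 2.4 FPKM, Eif4g1 at 88.7 ± 0.961, Eif2s1 at 78.1 ± 0.437 and Eif4e at 35.7 ± 0.988 FPKM. The eIF2B genes ran from 6.61 ± 0.1 (Eif2b3) to 41.8 ± 0.505 FPKM (Eif2b5). By CPM the control mean of Eif2b3 (48.6) was above that of Eif2b4 (34.3), which had 11.7 FPKM. The release factor gene Etf1 was at 46.7 ± 0.123 FPKM, above Gspt1 at 42.3 ± 0.705, and with the mimic they were at 72.3 ± 2.13 and 48.8 ± 0.577 FPKM. The eEF1B subunit gene Eef1d lay well below the leading elongation genes on this scale, at 81.5 ± 0.182 FPKM. By CPM its control mean was 595, against 1212 for Eef1b2. Eef1e1, listed under elongation by its symbol only, was at 24.8 ± 0.85 FPKM. With the mimic Eif5a reached 984 ± 24.4 FPKM and stood above Eef2, at 948 ± 11.1 FPKM, so that the order of this pair turned. The pair was picked after its values were seen, and the change of order was not tested.

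**Figure D3:**
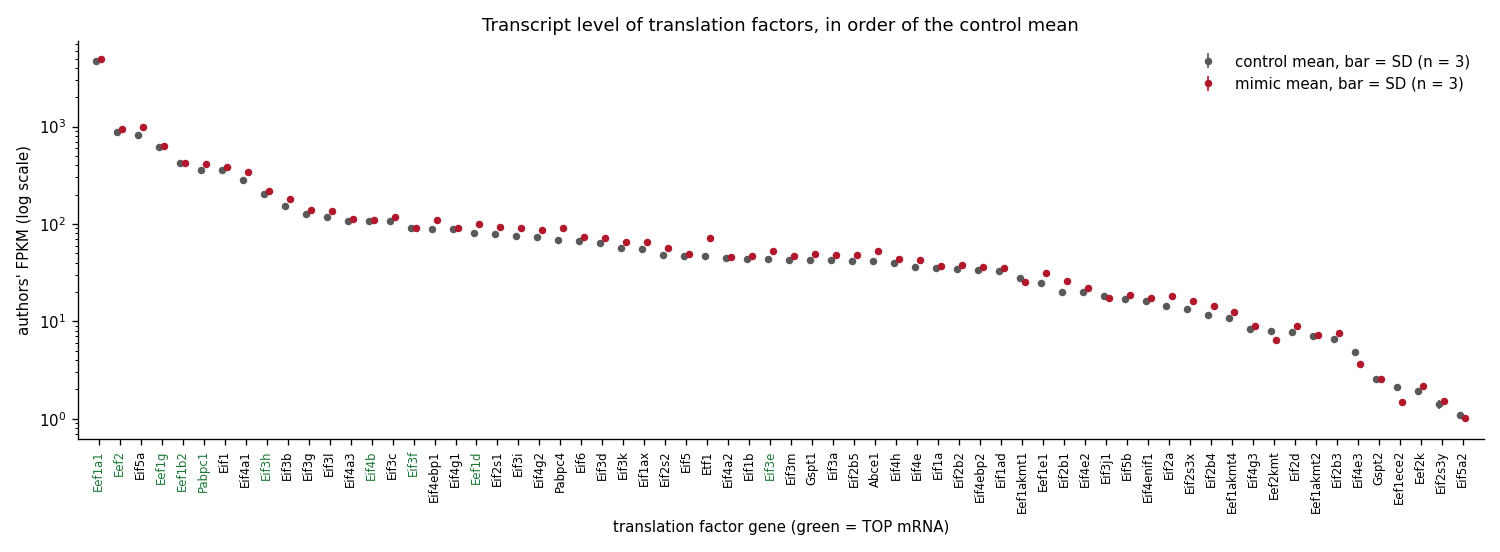
Authors' FPKM (log axis) of the members with a control mean of at least 1 FPKM, in order of the control mean; points are group means and bars the SD (n = 3), and green names mark TOP mRNAs. Eef1a1 lies far above the rest at 4677 FPKM in the controls, and TOP mRNAs fill much of the upper end.

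Of the members, 10 are long known as TOP mRNAs, whose 5′ end starts with a run of pyrimidines through which mTORC1 controls their translation. They are Eef1a1, Eef1b2, Eef1d, Eef1g, Eef2, Eif3e, Eif3f, Eif3h, Eif4b and Pabpc1. Of these 8 rose, none fell and 2 did not pass, with a median of 0.11. Of the other 58 tested members 47 rose, 3 fell and 8 did not pass, with a median of 0.20. The difference between these lists was not tested.

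Ratios of counts within a library do not depend on how libraries are scaled, so they show whether partners shifted relative to each other. The 12 pairs given here were picked with their values in view and are a description with no test. In 10 of the 12, all mimic libraries lay on one side of all controls. Between paralogues, Eif4a1 to Eif4a2 was 5.09, 5.12 and 5.03 in the controls and 5.91, 6.11 and 6.01 with the mimic. Eif1ax to Eif1a went from 1.99 ± 0.0321 to 2.26 ± 0.0132 and Eif4g2 to Eif4g1 from 1.16 ± 0.0114 to 1.34 ± 0.0269 (SD, n = 3 each). Eif4e to Eif4e3 was 16.8, 18.6 and 17.2 in the controls against 26.2, 30.6 and 26.5. So the more abundant Eif4a and Eif4e paralogue gained on the rarer one, and the alternative scaffold Eif4g2 on Eif4g1.

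Within complexes, Eef1d to Eef1b2 went from 0.491 ± 0.00269 to 0.598 ± 0.0133, and Eif3e to Eif3f from 1.11 ± 0.0274 to 1.33 ± 0.0265. Among the release factors, Etf1 to Gspt1 was 0.759, 0.742 and 0.761 in the controls and 0.998, 1.03 and 1.01 with the mimic. These are ratios of counts not adjusted for transcript length, and show a shift rather than which gene is higher. Pabpc4 to Pabpc1 went from 0.118 ± 0.00445 to 0.135 ± 0.00457. Eef1akmt4 to Eef1ece2 went from 2.44 ± 0.183 to 3.95 ± 0.279. By contrast, Eif4ebp1 to Eif4e was 0.911 ± 0.037 in the controls and 0.958 ± 0.0362 with the mimic, with overlapping libraries: the inhibitor and its target went up by amounts that these libraries do not separate. Eif2s3x to Eif2s3y overlapped too, at 8.79 ± 0.831 and 9.76 ± 0.541.

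**Figure D4:**
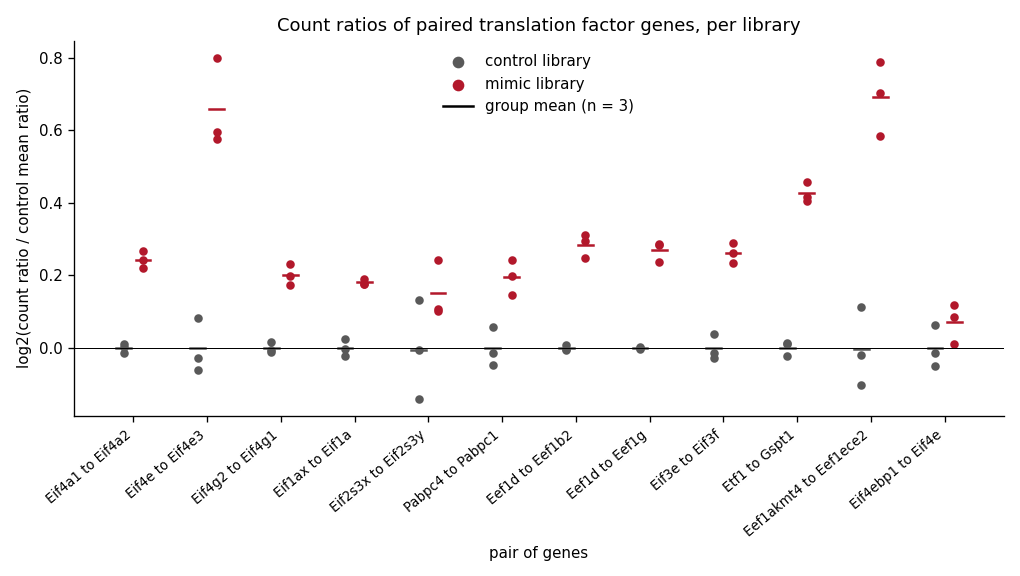
Count ratio of 12 pairs of translation factor genes in each library, as log2 of the ratio over the control mean; points are libraries (3 per group) and lines the group means. In 10 pairs the red mimic points lie above all grey control points, and Eif2s3x to Eif2s3y and Eif4ebp1 to Eif4e overlap.

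Of the 15 members with a site of 7 or 8 bases 11 rose and 1 fell, with a median log2 change of 0.17. All 68 tested members gave 55 risen and 3 fallen, with a median of 0.19, and this difference was not tested. The 4 members with an 8mer all rose: Eif4e by 0.28, Eif2s2 by 0.25, Eif4e2 by 0.17 and Eif4b by 0.08, a median of 0.21. Over all 452 genes with an 8mer the median was -0.12 and 46.9% fell. Of the 7 members whose best site was a 7mer-m8 (Eef2k, Eif2b1, Eif2b3, Eif2s3x, Eif4a2, Eif4g2 and Eif5a2) 6 rose and none fell, with a median of 0.24. All genes of that class had a median of -0.06, and 36.5% fell. Of the 4 with a 7mer-A1 (Eef1b2, Eif3j1, Eif4e3 and Eif5) Eif5 rose, Eif4e3 fell and 2 did not pass, and 35.0% of all genes of that class fell. Of the 7 members whose best match was a 6mer 5 rose and none fell, against 29.97% fallen among all such genes. In all, 15 of the 68 tested members (22.1%) held a site of 7 or 8 bases, as did 22.4% of the 11559 tested protein-coding genes with a 3′ UTR. With the longest coding transcript alone the shares were 17.6% and 18.6%. Of the 46 members with no match at all, 39 rose and 2 fell, namely Eef2kmt and Eef1ece2. Their median was 0.23. All genes without a match had a median of 0.02, and 23.4% fell. The site classes over all genes hold every level of expression, whereas 55 of the 68 tested members reach 50 CPM. At that level 48.4% of all genes rose and 24.2% fell, so members and classes are not matched in level. The part of expression level in these contrasts was not tested. Which 3′ UTR forms LLC cells use was not tested either.

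Regulators around these factors are given next, to be read beside the 24.3% risen and 24.8% fallen among all genes tested. Among genes of at least 50 CPM these shares were 48.4% and 24.2%. Each list holds genes on both sides of that level, and the part of expression level in their counts was not tested. Of 6 genes for eIF2alpha kinases and phosphatase subunits 2 rose, 2 fell and 2 did not pass, shares near those of all genes, and with total counts only 2 rose and 3 fell. Eif2ak3, the kinase PERK, fell by 0.29 on the log2 scale, from 23.6 ± 0.247 to 19.3 ± 0.499 CPM, and Eif2ak2, the kinase PKR, fell by 0.24. Ppp1r15a, which brings a phosphatase to eIF2alpha, rose by 0.28, from 22.2 ± 0.894 to 27.0 ± 2.11 CPM (SD, n = 3 each), and the kinase gene Eif2ak1 rose by 0.13. Of 14 genes of mTORC1 and its outputs to translation 7 rose, 3 fell and 4 did not pass, and with total counts only 5 rose and 4 fell. Deptor, an mTOR inhibitor, fell by 0.42, from 43.0 ± 0.867 to 32.2 ± 0.426 CPM, Mknk2, a kinase of eIF4E, fell by 0.30 and the mTOR complex subunit gene Mlst8 by 0.11. Akt1s1, which encodes the mTORC1 inhibitor PRAS40, rose by 0.34, from 47.8 ± 1.18 to 60.6 ± 1.38 CPM. The kinase gene Mtor, its partner Rptor, its activator Rheb, the kinase gene Rps6kb1, the TOP mRNA regulator Larp1 and the inhibitor gene Tsc2 rose by 0.09 (Rheb) to 0.24 (Tsc2), Mtor and Rheb not with total counts only.

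Of 8 regulators of poly(A)-binding protein and of initiation at the cap, 6 rose and 1 fell, and with total counts only 3 rose and 2 fell. Denr and Mcts2, whose products act on reinitiation, rose by 0.35 and 0.32, and the helicase gene Ddx3x rose by 0.35, from 318 ± 0.212 to 406 ± 8.7 CPM. The fallen gene was Paip2b, an inhibitor of poly(A)-binding protein, at -0.16. Of 8 ribosome rescue genes 5 rose and 1 fell, 3 and 1 with total counts only. The rescue GTPase gene Hbs1l rose by 0.36 and Nemf by 0.17, and Gtpbp2 fell by 0.32. All risen rescue genes had control means above 50 CPM, and the other rescue genes lay below it. Among 9 genes for the hypusine of eIF5A and the diphthamide of eEF2 the counts were 5 risen and 1 fallen (4 and 1 with total counts only), with Dph1, Dph3 and Dph5 at 0.32, 0.23 and 0.21 and the fallen gene Dph2 at -0.20. Mitochondria have their own translation factors, and of these 9 genes 1 rose (Gfm1, 0.07) and 2 fell (Mrrf and Mtif2, both at -0.12), while 6 did not pass. With total counts only Gfm1 did not pass (log2 change 0.01, adjusted p = 0.637, edgeR). These lists were written with earlier results of the data known, and no list was tested against another. Eif2ak1, Mlst8, Paip2b, Dph2 and the mTORC1 genes in the range from Rheb to Tsc2 were named after their values were seen.

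**Figure D5:**
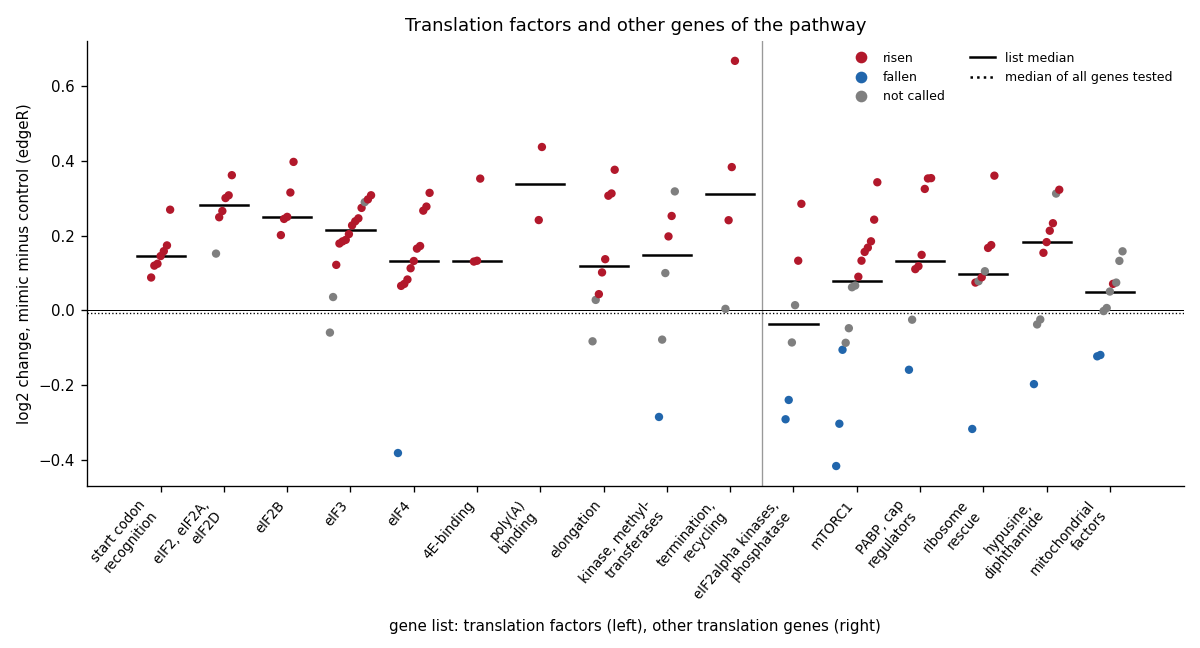
Log2 change (mimic minus control, edgeR) of each tested gene in the step lists of translation factors (left of the grey line) and in 6 lists of related genes (right); Eif1ad and Eef1ece2 are not drawn, black bars are list medians and the dotted line is the median of all genes tested. The step list medians lie between 0.12 and 0.34, and the median of the eIF2alpha kinase and phosphatase list lies at -0.04.

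The libraries held 25376993 to 32963986 counts and the biological coefficient of variation was 2.02%. As a check of the label, the epithelial keratin gene Krt8 was high (493 ± 7.41 CPM in the controls). Vim, an intermediate filament of mesenchymal cells, was higher still (2063 ± 12.2 CPM). Another keratin gene, Krt18, was at 1.97 ± 0.365 CPM in the controls, and Epcam, Cdh1 and Sftpb were at or near 0. Krt19, Nkx2-1 and Sftpc were not among the genes counted, so Krt8 alone of the epithelial and lung markers was high. Of the 8 epithelial and lung markers, 2 were tested, and both rose, while the 3 tested of 4 mesenchymal markers fell, with sums of 2183 to 2219 CPM in the controls and 1944 to 1976 CPM with the mimic. The summed level of 9 macrophage and leukocyte markers was 17.4 to 19.8 CPM in the controls and 10.8 to 11.8 CPM with the mimic. Ptprc, Adgre1 and Itgam were at or near 0. The highest of the 9 were Cd14, which fell from a mean of 9.62 to 6.31 CPM, and Lyz2, which fell from 5.52 to 2.78 CPM. The 4 fibroblast markers summed to 53.0 to 58.6 CPM and 53.3 to 53.9 CPM, a sum in which Pdgfra fell by 0.58 on the log2 scale while Pdgfrb rose by 0.32 and Lum by 1.29. The 4 endothelial markers summed to under 1 CPM in each library. The part of these differences in the changes of the translation factors was not tested. In such bulk RNA, fewer cells of one kind and less RNA per cell cannot be told apart.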

How the data were processed

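Per the labels' protocols, TRIzol RNA was DNase-treated, polyadenylated RNA captured on beads, and strand-marked (dUTP) libraries read as paired ends. HISAT2, DESeq2 and GRCm39 are named, without versions, in the submitters' processing notes. Neither the read counter and its strand setting nor the gene annotation is given in the sources used here. Groups come from the sample titles. Whole-number read counts for 24794 genes and FPKM values for 24494, with a column per library, were deposited by the authors.

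edgeR 4.0.16 (R 4.3.3) was run on the counts of all genes (filterByExpr, TMM, estimateDisp, glmQLFit, glmQLFTest), with Benjamini-Hochberg adjustment over the 13779 genes kept and a threshold of 0.05. CPM are per TMM-scaled library. Each SE is the size of the log2 change over the square root of F. Libraries of a group differed by more than sampling noise (mean chi-square per gene 1.85 to 2.23), so each counts once. The steps were tested on simulated data.

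The members and gene lists were chosen with earlier results of these data known. Values per library are given for called members that changed at least 1.2-fold, for the largest changes and for the most counted gene of each step list, and for others where a comparison uses them. Seed sites were sought with Python 3.11.15 in 3′ UTRs of GENCODE M21 on GRCm38, a build that differs from the authors', so coordinates belong to GRCm38. Mature microRNAs are from RefSeq.

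Alternatives were DESeq2 size factors, total counts only, total counts without mitochondrial and ribosomal protein genes, a Wald test in DESeq2 1.42.0, a filter of 2 CPM in 3 libraries or none, limma 3.58.1 on log2(FPKM + 1) and log2(FPKM + 0.1), an adjusted p under 0.01, the replicate block, and leaving out each library. The restriction to 50 CPM was added after seeing the data.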

Additional observations from a re-analysis of the deposited data

How the results depend on the processing

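The count of risen members stayed within 47 to 56 in each setting tried with all levels of expression. The share of all genes that rose moved more. It was 11.3% of 24794 genes with the DESeq2 Wald test and 16.9% of 13779 with limma on log2(FPKM + 1). With at least 2 CPM in 3 libraries it was 28.6% of 11115 genes. With total counts only, 48 rose, 5 fell, 7 rose by at least 1.2-fold and the median was 0.14, and without mitochondrial and ribosomal protein genes in the totals these values were the same (5, 7 and 0.14). With at least 2 CPM in 3 libraries the median was 0.18. With limma on log2(FPKM + 1) 11 members rose by at least 1.2-fold and the median was 0.14, and on log2(FPKM + 0.1) the median was 0.16. Among members of at least 50 CPM 0 fell. Leaving out each library gave 53 to 56 risen and 3 to 4 fallen members, 18 to 21 risen and 2 to 3 fallen by at least 1.2-fold, and medians of 0.19 to 0.22. The cause of these differences was not tested.

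Of the 55 risen members 45 passed in all 15 settings in which calls were compared, and all 3 fallen ones fell in each. The like count over all genes is not given here. Eef1g rose in 6 of the 15 and Eef2k in 8. Of 435 values for the 29 members given in full, 430 kept their direction and call and none reversed. Eef1a1 lost its call with limma on log2(FPKM + 0.1), and Eef1akmt1 gained one in 4 settings.

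Whether replicate numbers pair the libraries could not be settled from such small correlations with 3 libraries per group. Same-numbered deviations correlated at 0.02, 0.08 and 0.06 and different-numbered ones at -0.06 to 0.01, and each library correlated best with its own number. With the number as a replicate block 55 members rose, 4 fell, 20 rose and 3 fell by at least 1.2-fold, and the median was 0.19.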

Other observations

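Beside the protein-coding members, 10 rows that do not code for protein have symbols of the same form, 9 of them processed pseudogenes. Eif4a-ps4 had 142, 151 and 160 counts in the control libraries and 178, 185 and 202 with the mimic. Eef1a1-ps1 had 76 to 106 counts over the 6 libraries, and the others at most 25. They are listed only because reads of Eif4a1 and Eef1a1 can map to such copies. The authors' handling of reads with several matches is not given in the sources used here.

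Eif2c5, a long noncoding RNA, had at most 5 counts in a library. The 5 untested members, Eef1a2, Eif1ad15, Eif4a3l2, Eif4e1b and Eif4ebp3, also had at most 5 counts in any library.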
